A study of Drosophila melanogaster with 4 samples.

Results

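The genes described here are 8 genes of autophagy and of TOR-FOXO nutrient signalling in the fruit fly Drosophila melanogaster. They were chosen by symbol: foxo, Sesn and REPTOR are regulators, and Atg9, Atg13, Atg18a, Atg101 and Atg4b are genes of the autophagy machinery. All 8 were found under their own symbol, as 8 of 2377 genes with a name here and of 13607 features in all, and they are read by 18 of 16896 spots. The study set adult Oregon-R females, aged 10 to 20 days after emergence, that were sprayed with an insecticidal extract of black pepper (Piper nigrum) seeds against females sprayed with the solvent alone. Treated flies received 2 mL of extract at 0.9 mg/mL in 99% ethanol in a Potter's tower, a spray tower that spreads a dose evenly, and control flies received 2 mL of 99% ethanol, so both groups carry the ethanol. RNA was taken from whole flies after 4 h, in pools of about 240 females that the labels number 1 and 3. Each pool was hybridised on 2 arrays, once with the extract sample in the dye Cy3 and once in Cy5, which gives 4 arrays and n = 2 pools.

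Autophagy encloses pieces of cytoplasm in a double membrane and delivers them to the lysosome, and it is the main route by which fly fat body and gut recycle material in starvation. The kinase TOR holds it back while amino acids and insulin are plentiful, by inhibiting the Atg1 kinase complex, and insulin signalling through Akt keeps the transcription factor Foxo out of the nucleus. When either signal drops, Foxo and the TOR-repressed factor Reptor switch on catabolic genes, and Sestrin, encoded by Sesn, is a stress-induced inhibitor of TOR.

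Every value is a log2 ratio of the 2 dye channels of a spot as the authors deposited it, read as channel 2 (extract) over channel 1 (ethanol) on all 4 arrays. No source used here gives the log base or the direction of the ratio. Base 2 was taken and the direction was assumed, so signs are given as above or below 0 and not as induction or repression. Were the ratios formed as Cy3 over Cy5, the reading with the 2 Cy5 arrays turned in sign would apply. It is given beside the first as the turned reading. Were they formed as Cy5 over Cy3, every turned value would change sign, so the sign of the turned reading is assumed too. A log2 ratio from whole flies cannot tell fewer cells of a type from less RNA per cell.

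Of the 8 genes, 7 had a mean ratio above 0 and 1 below, and the range ran from -0.04 for Atg13 to 0.42 for Sesn. None passed the test over all features (limma, adjusted p from 0.577 to 0.987), where 6 of 13607 features, or 0.0441%, passed. At an unadjusted limma p under 0.05 there were 2, Sesn and Atg18a, both above 0, and 2.73% of the named genes met that mark above 0 and 1.09% below it. The median of the 8 genes was 0.10, beside 0.01 over all named genes, and 1225 of the 2377 named genes (51.5%) lay above 0. Without the Cy5 array of replicate 1, or without the Cy3 array of replicate 3, 0 of the 8 met that unadjusted mark, and without the Cy3 array of replicate 1 it was 1, Sesn. Since the genes were proposed with results of these data known, these counts are a description.

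**Figure D1:**
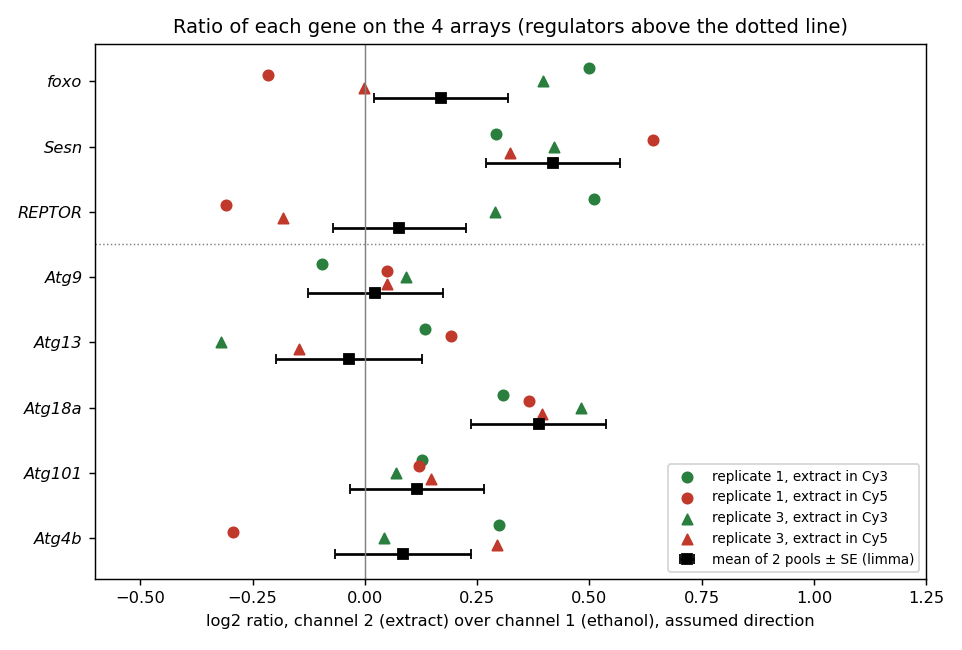
The log2 ratio of each gene (rows) on the 4 arrays, with colour for the dye of the extract sample and shape for the pool, and the mean of the 2 pools with its standard error from limma as a black square. Sesn and Atg18a lie at 0.29 or higher on every array, while foxo and REPTOR are above 0 in Cy3 and below 0 in Cy5.

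Among the regulators, Sesn had the highest ratio. It stood at 0.29 and 0.64 on the Cy3 and Cy5 arrays of replicate 1, and at 0.42 and 0.32 on those of replicate 3. All 4 arrays were above 0, and the values of the pools and of the dyes overlapped. The mean was 0.42 ± 0.15 (limma SE, n = 2 pools), or 1.34-fold, with a 95% interval of 0.08 to 0.76 before any adjustment (limma, adjusted p = 0.577). Over 9 alternative fits the adjusted p of Sesn ran from 0.280 to 0.983 in limma. Of the named genes, 1.64% had a higher mean. The gene was printed as 2 spots of 1 cDNA, and these gave means of 0.36 and 0.48, each above 0 on 4 of 4 arrays. In the turned reading Sesn stood at -0.06.

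The 2 transcription factors gave another pattern, in which the sign followed the dye. foxo, which encodes the forkhead factor under insulin control, stood at 0.50 and 0.40 on the Cy3 arrays of replicates 1 and 3, and at -0.22 and -0.003 on their Cy5 arrays. REPTOR, the gene of the basic leucine zipper factor that TOR restrains, stood at 0.51 and 0.29 on the Cy3 arrays of replicates 1 and 3, and at -0.31 and -0.18 on the Cy5 arrays. For both genes the Cy3 values lay wholly above the Cy5 values, and the pools overlapped. Such a split, above 0 on both Cy3 arrays and below 0 on both Cy5 arrays, was held by 2 of the 8 genes and by 6.56% of the named genes.

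Averaged over the dyes, foxo had a mean ratio of 0.17 ± 0.15 (limma SE, n = 2; limma, adjusted p = 0.828) and REPTOR one of 0.08 ± 0.15 (limma, adjusted p = 0.944). These standard errors come from pool means in which the dyes were already averaged, and most of each variance estimate is shared over features. They ran only from 0.149 to 0.162 over the 8 genes. The SD over the 4 arrays, a different measure, was 0.34 for foxo and 0.39 for REPTOR against a median of 0.23 over the named genes. In the turned reading foxo stood at 0.28 ± 0.15, with 0.36 in replicate 1 and 0.20 in replicate 3, and REPTOR at 0.32 ± 0.15, with 0.41 and 0.24. Neither passed that fit (limma, adjusted p = 0.962 for both). Over 9 alternatives, the turned one among them, the adjusted p in limma ran from 0.630 to 0.999 for foxo and from 0.801 to 0.994 for REPTOR. Without the Cy3 array of replicate 1 the means lay on the other side of 0, at -0.01 for foxo and -0.13 for REPTOR. Without the Cy3 array of replicate 3 REPTOR stood at -0.04. Such a fit leaves 1 pool with a single dye, so it reflects the split by dye. With both dyes kept, foxo stood at 0.20 without replicate 1 and at 0.14 without replicate 3. REPTOR stood at 0.05 and 0.10. At an unadjusted limma p under 0.05 the turned fit held 0 of the 8 genes above 0, beside 1.22% of the named genes. Turned, 3.83% of named genes stood higher than foxo and 2.15% higher than REPTOR.

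The spots of both factors showed the split unequally. The 2 prints of foxo differed by at most 0.53 on 1 array, with a median difference of 0.10, and 1 of them was slightly above 0 on the Cy5 array of replicate 3, at 0.06. The prints of REPTOR differed by a median of 0.32, and on that same array they stood at 0.12 and -0.48. Over 2089 named genes with 2 spots the median difference between prints was 0.24, so the Cy5 value of REPTOR in replicate 3 is smaller than the disagreement between its own spots.

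**Figure D2:**
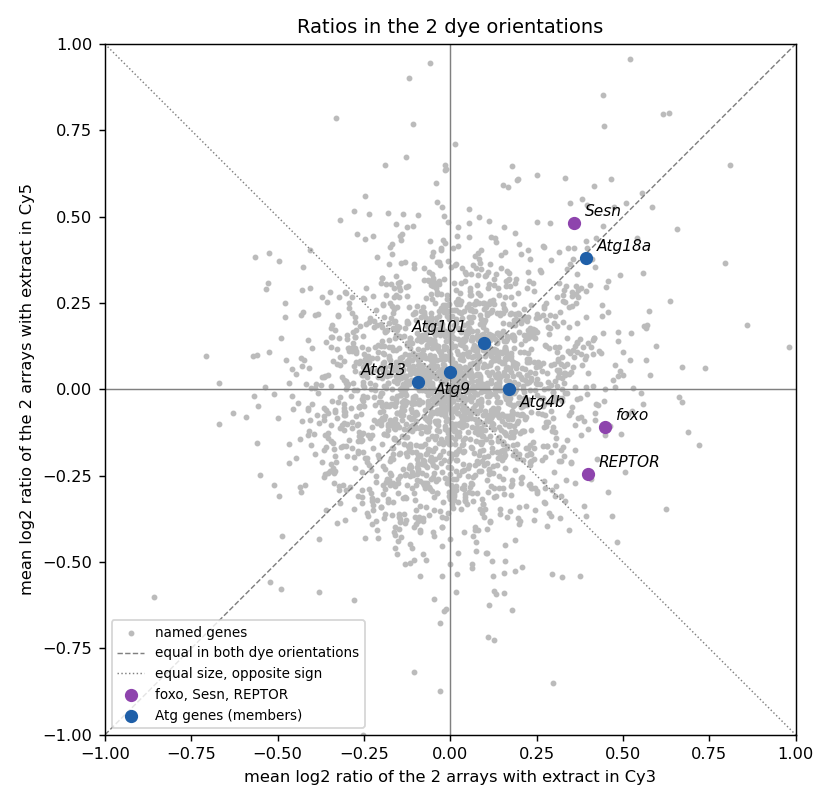
Mean log2 ratio of the 2 arrays with extract in Cy5 (vertical) against that of the 2 arrays with extract in Cy3 (horizontal), for named genes in grey (23 lie outside the axes) and the 8 genes in colour. Sesn and Atg18a lie near the dashed line of equal ratios, at 0.36 and 0.48 and at 0.39 and 0.38, whereas foxo and REPTOR lie below 0 on the vertical axis at -0.11 and -0.24.

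Atg18a, the fly counterpart of the WIPI proteins that bind phosphatidylinositol 3-phosphate on the growing membrane, had the second-highest mean ratio of the 8 and varied little between arrays. It stood at 0.31 and 0.36 on the Cy3 and Cy5 arrays of replicate 1 and at 0.48 and 0.40 on those of replicate 3. All 4 arrays were above 0, their SD was 0.07, and the dyes overlapped while replicate 3 lay above replicate 1. The mean was 0.39 ± 0.15 (limma SE, n = 2 pools), or 1.31-fold, with a 95% interval of 0.05 to 0.72 before adjustment (limma, adjusted p = 0.617, and 0.295 to 0.996 over 9 alternatives). Its 2 prints gave 0.40 and 0.38, and their median difference of 0.07 was the smallest among the 7 of the 8 genes that have 2 spots. In the turned reading it stood at 0.01.

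Atg9, the membrane-spanning protein whose vesicles seed the autophagosome, lay near 0 on every array as the average of its prints. It stood at -0.10 and 0.05 on the Cy3 and Cy5 arrays of replicate 1 and at 0.09 and 0.05 on those of replicate 3, with a mean of 0.02 ± 0.15 (limma, adjusted p = 0.987). Its prints had means on either side of 0: 1 was below 0 on all 4 arrays, with a mean of -0.11, and the other had a mean of 0.15. They differed by a median of 0.30, against 0.24 over the named genes with 2 spots.

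Atg101 and Atg13 encode partners in the Atg1 kinase complex that starts autophagy, and Atg13 is a direct substrate of TOR signalling. Atg101 stood at 0.13 and 0.12 on the Cy3 and Cy5 arrays of replicate 1 and at 0.07 and 0.15 on those of replicate 3, a mean of 0.12 ± 0.15 (limma, adjusted p = 0.897). It was above 0 on all 4 arrays with the lowest SD of the 8 genes, 0.03, yet 1 of its prints was below 0 on 2 arrays. With Sesn and Atg18a it made 3 of the 8 genes above 0 on all 4 arrays, a mark held by 8.83% of the named genes.

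Atg13 separated by pool. It stood at 0.13 and 0.19 on the arrays of replicate 1 and at -0.32 and -0.15 on those of replicate 3, so the pools did not overlap and the mean was -0.04 ± 0.16 (limma, adjusted p = 0.980). This was the 1 gene of the 8 above 0 on both arrays of replicate 1 and below 0 on both of replicate 3, as were 5.85% of the named genes. Atg13 was the 1 gene here with 2 separate cDNAs, of 2 prints each, and they disagreed, with means of 0.04 and -0.11. The first gave 0.16 and 0.46 in replicate 1 and -0.19 and -0.27 in replicate 3, whereas the second gave 0.10 and -0.08 in replicate 1 and -0.45 and -0.02 in replicate 3. The separation by pool was therefore complete in the first cDNA and not in the second. Of the 2 prints of the second, 1 was below 0 on all 4 arrays, with a mean of -0.35, and the other had a mean of 0.13.

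Atg4b, a cysteine protease that trims Atg8 so that it can be joined to membrane, stood at 0.30 and -0.29 on the Cy3 and Cy5 arrays of replicate 1 and at 0.04 and 0.29 on those of replicate 3. Pools and dyes both overlapped, and the mean was 0.09 ± 0.15 (limma, adjusted p = 0.936). The swings came from 1 print, which ranged from -0.59 to 0.49, while the other stayed between 0.01 and 0.13 and above 0 on all 4 arrays.

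The regulators and the Atg genes were compared as means on each array, with no test, because the smallest two-sided p of an exact sign test over 2 pools is 0.5 and the genes were chosen with results known. The regulators averaged 0.22, with 0.24 in replicate 1 and 0.21 in replicate 3, and the Atg genes 0.12, with 0.12 and 0.11. The difference of 0.11 was positive in both pools, at 0.12 and 0.10, but in the assumed direction it turned over with the dye. On the Cy3 arrays of replicates 1 and 3 the regulators lay 0.28 and 0.30 above the Atg genes, and on the Cy5 arrays the differences were -0.05 and -0.10. Without any 1 array the difference ran from 0.0070, without the Cy3 array of replicate 3, to 0.21, without the Cy5 array of replicate 3. Such a fit leaves 1 pool with a single dye. All 3 regulators were above 0 on each Cy3 array and 1 of 3, Sesn, on each Cy5 array, while on each array 4 of the 5 Atg genes were above 0 and the gene below it changed: Atg9 and Atg4b on the Cy3 and Cy5 arrays of replicate 1, and Atg13 on both arrays of replicate 3. By mean ratio the subsets interleaved: Sesn came first, then Atg18a, foxo, Atg101, Atg4b, REPTOR, Atg9 and Atg13, and no neighbours in that order differed by more than the standard error of either except Atg18a and foxo, at 0.39 and 0.17. In the turned reading the regulators averaged 0.18 and the Atg genes -0.002. Their difference was then above 0 on all 4 arrays. It was 0.28 and 0.05 on the Cy3 and Cy5 arrays of replicate 1, and 0.30 and 0.10 on those of replicate 3. The change of sign with the dye thus depends on the direction assumed.

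**Figure D3:**
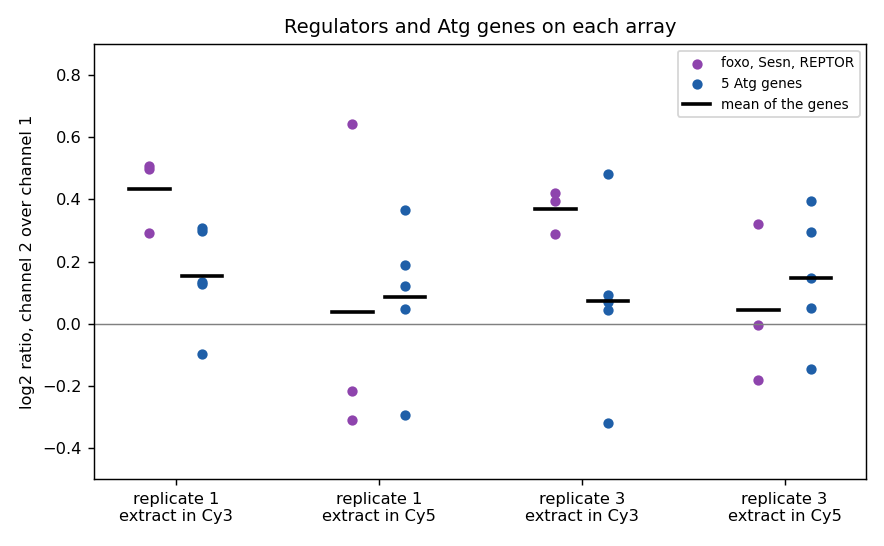
Log2 ratio (vertical) of the 3 regulators and the 5 Atg genes on each of the 4 arrays, a point for each gene and a black bar for the mean of its subset. The regulators' mean is 0.43 and 0.37 on the Cy3 arrays of replicates 1 and 3 and 0.04 and 0.05 on the Cy5 arrays, while the means of the Atg genes lie between 0.07 and 0.15.

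Other genes of these pathways were taken from 5 lists fixed by symbol, of which 42 separate genes were measured beside the 8. Over the 5 lists 0 genes passed the test over all features. At an unadjusted limma p under 0.05 there were 5, all above 0, against the 2.73% of named genes given above. Of these 5, 4 came from the list of AMPK and fasting-linked partners. The lists were chosen with earlier results of these data known, so the count is a description. Of 23 other core autophagy genes 5 were measured, 4 of them above 0, with a median of 0.13. Atg8a, the ubiquitin-like protein that coats the autophagosome and the usual marker of it, had the highest ratio among them. It stood at 0.62 and 0.65 on the Cy3 and Cy5 arrays of replicate 1 and at 0.14 and 0.46 on those of replicate 3, a mean of 0.47 ± 0.16. All 4 arrays were above 0, as for Sesn and Atg18a, and the turned reading gave -0.09. Without the Cy5 array of replicate 3 Atg8a did not meet the unadjusted mark. Its paralogue Atg8b stood at 0.25 and was below 0 on the Cy3 array of replicate 1. stas, the fly Tmem41b, lay at 0.04, and Pi3K59F, the Vps34 lipid kinase that makes the phosphoinositide bound by Atg18a, at -0.26 with 3 of 4 arrays below 0.

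Of 36 genes of TOR complexes and nutrient sensing 12 were measured, with a median of -0.05, and 8 lay below 0. None had an unadjusted p under 0.05. Iml1 and Nprl2 had the lowest ratios at -0.24 and -0.21, each below 0 on all 4 arrays. Both are subunits of the GATOR1 complex that restrains TOR when amino acids are scarce. Nprl3, of the same complex, stood at 0.01 and was above 0 on 2 of 4 arrays. Sin1, a subunit of the TOR complex that acts on Akt, was highest at 0.05 through 1 array and lay below 0 on the other 3, and Tsc1, which inhibits the TOR activator Rheb, stood at 0.03. mTor itself stood at 0.01 and 0.02 on the Cy3 arrays of replicates 1 and 3 and at -0.27 and -0.33 on their Cy5 arrays, a mean of -0.15. In the turned reading 10 of the 12 lay above 0 and the median was 0.09, so the list changed side with the direction taken.

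Between the insulin receptor and Foxo 4 of 28 listed genes were measured, 2 above 0 and 2 below, with a median of -0.11 and 0 at an unadjusted limma p under 0.05. ImpL2, a secreted protein that binds insulin-like peptides and blunts their signal, stood at 0.15, and Pi3K68D, a class II lipid kinase, at 0.03. Pi3K59F is on this list too, at -0.26. p53, placed here as a known inducer of sestrin genes, stood at -0.29 and was below 0 on all 4 arrays, and in the turned reading it stood at -0.05, beside -0.06 for Sesn. The kinases Akt, Pdk1 and the insulin receptor were not analysed here.

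Of 32 genes of the fasting-linked list 12 were measured, 9 above 0 and 3 below, with a median of 0.09, and 4 had an unadjusted limma p under 0.05. They were Lpin, a phosphatidate phosphatase of fat synthesis, at 0.73, puc, a phosphatase of JNK signalling, at 0.46, bmm, the main triglyceride lipase of fly fat and a known Foxo target, at 0.40, and kay, the fly Fos, at 0.36. All 4 were above 0 on 4 of 4 arrays, a mark held by 8.83% of the named genes. These 4 were picked by a p-value from the same arrays, so this is a description. In the turned reading they stood at 0.08 for Lpin, -0.07 for puc, -0.01 for bmm and 0.24 for kay. The ratio of kay rested on the Cy3 array of replicate 1, at 0.84, beside 0.03, 0.35 and 0.22 on the others. Without that array kay stood at 0.16 and no longer met the unadjusted mark, nor did it without the Cy3 array of replicate 3. With 1 array left out, bmm met the mark only without the Cy5 array of replicate 1. The gene puc missed it without that Cy5 array, and Lpin met it in each of these fits. The lowest were the gluconeogenic enzyme fbp at -0.25 and the salt-inducible kinase Sik2 at -0.14. Neighbouring pathways share these values, bmm and Lpin with lipid storage and puc, kay and p53 with JNK and p53 signalling.

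For the lysosome and its fusion with autophagosomes 10 of 47 genes were measured, 6 above 0 and 4 below, with a median of 0.02 and 0 at an unadjusted p under 0.05 in limma. The lysosomal membrane protein Lamp1 was lowest at -0.33, with -0.07 without the Cy5 array of replicate 1 and -0.59 without the Cy3 array of that pool, followed by Vha16-1, a subunit of the proton pump that acidifies lysosomes, at -0.22. The highest were spin, a lysosomal efflux transporter, at 0.17, and lt, a tether of late endosome fusion, at 0.15. The medians of this list were 0.10 and 0.09 on the Cy3 arrays of replicates 1 and 3 and -0.18 and -0.11 on the Cy5 arrays, the same order of dyes as for foxo and REPTOR, and the turned median was 0.17.

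**Figure D4:**
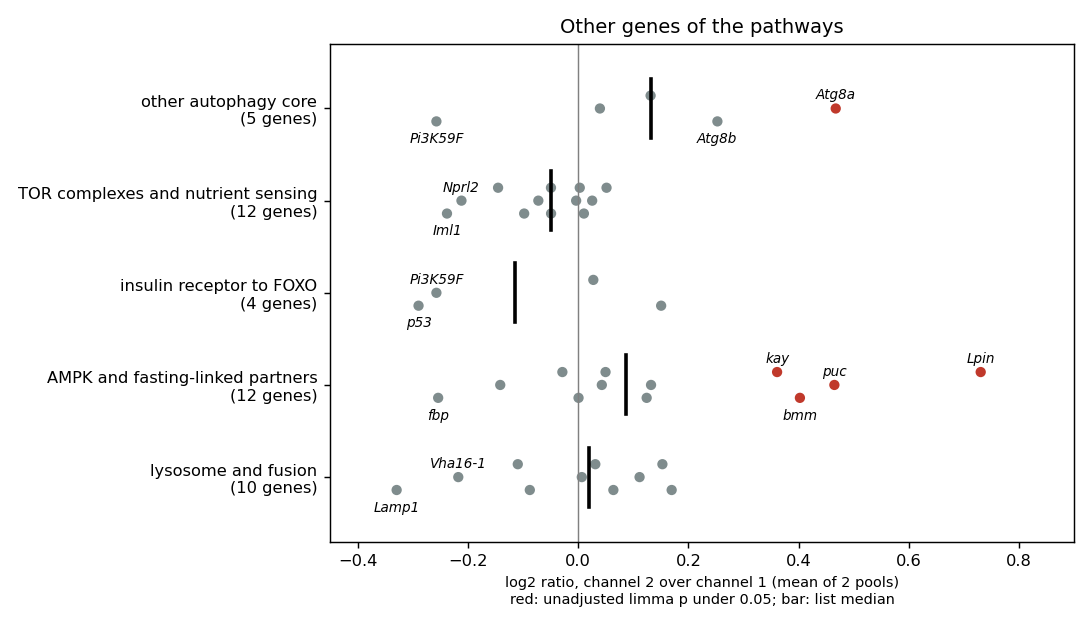
Mean log2 ratio (horizontal) of the measured genes of 5 pathway lists, a point for each gene, red at an unadjusted limma p under 0.05, with the list median as a black bar. The red points are Atg8a, Lpin, puc, bmm and kay, and the medians lie between -0.11 and 0.13.

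The genes most like each regulator were found by Euclidean distance over the 4 array values among the 2377 named genes, as a description. Nearest to foxo were fbl, which encodes pantothenate kinase, at a distance of 0.09, CG15772 at 0.17 and CG14971 at 0.17. REPTOR was the 7th nearest gene to foxo, at a distance of 0.23, and foxo the 6th nearest to REPTOR. Nearest to REPTOR were Vha100-1, a proton pump subunit, at 0.13, CG8476 at 0.18 and CG31064 at 0.19. Nearest to Sesn were CenG1A, a GTPase-activating protein, at 0.15, Zasp66, of the muscle Z-disc, at 0.16 and CG12983 at 0.20, and Atg18a was 9th at 0.29. Sesn ranked 1582nd for foxo and 1953rd for REPTOR, so its pattern over these arrays was not that of the factors.

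Markers of tissues within the whole fly were read beside these values, on 6 lists. For fat body, where the pathway is best studied, 4 of 13 markers were measured, 3 of them below 0, with list medians from -0.35 to -0.16 on the arrays and 2 at an unadjusted limma p under 0.05. For muscle 7 of 20 were measured, 6 above 0 and 4 at an unadjusted limma p under 0.05, with medians from 0.22 to 0.43 on the 4 arrays, which is above 0 on every array as Sesn, Atg18a and Atg8a are. Turned, 3 of these 7 markers lay above 0 with 0 at the unadjusted mark, and the median was -0.01, while that of fat body was -0.10 with 1 of 4 above 0. All 6 measured neuronal markers of 12 had means above 0, with medians from 0.06 to 0.25, but 2 of the 6 did in the turned reading, with a median of -0.04. The ovary list (3 of 11 measured) and the male list (3 of 6) had medians of -0.01, and 0 of 12 gut markers were measured. Turned, the ovary median was 0.09 with 3 of 3 above 0, and the male median was -0.03 with 1 of 3 above 0. Signal levels were not used, so no marker can be called absent, and the part of tissue content in the ratios of the 8 genes was not tested.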

How the data were processed

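The deposited values are log2 ratios of 2 dye channels, 1 for each of 16896 spots on 4 arrays, with no missing value; the log base and how the authors corrected and normalized them are not given in the sources used here. Per the labels, RNA (80 µg) was labelled directly with Cy3 or Cy5. Array medians as deposited lay between -0.00218 and -0.000152, and each array was centred on its median. The platform's annotation lists 1 gene for 5666 spots, several for 152 and none for 11078, and all 5666 matched a RefSeq gene number (Release 6) with 0 symbols changed. Spots of a gene were averaged per array and other spots stayed single, and the dye swaps were then averaged per pool. limma 3.58.1 (R 4.3.3; lmFit, eBayes) gave a two-sided test of each mean ratio against 0. Its p-values were adjusted by Benjamini-Hochberg over 13607 features and the threshold was 0.05. The code was tested on simulated data. The fit has 1 residual and 8.19 prior degrees of freedom, so most of each variance estimate is shared over features. No label says how the 2 pools were separated, so the spread between them may be technical. The p-values rest mainly on that spread as shared over features, and little on a gene's own. Precision is limited by having 2 pools, on 4 arrays.

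The 8 genes and the gene lists were chosen with earlier results of these data known. Values were given for all 8 genes, the 3 nearest genes of each regulator, and every pathway-list gene at an unadjusted p under 0.05. The 2 highest and 2 lowest of each pathway list were given too. Nprl3, mTor, Vha68-3, Atg13's separate cDNAs and single spots were added after their values were seen. List names were matched to current symbols through RefSeq synonyms. Alternatives were the turned direction, scaling, no centring, a replicate block, other feature sets, and leaving out each array or pool. Promoter sequence was not analysed here.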

Additional observations from a re-analysis of the deposited data

Results flagged for a closer look

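Of 37 genes, subset means and list medians compared over the 4 arrays by Dixon's critical value, 2 had a single array standing apart. For separate items chosen without regard to their values, chance alone would set apart about 1 in 20, here 1.85. These items overlap, and Sin1 and fbp were included as the highest and the lowest of their lists. That rate is therefore only a rough guide. Sin1 stood at 0.56 on the Cy3 array of replicate 3 and between -0.17 and -0.07 on the others. fbp stood at -1.06 on the Cy5 array of replicate 1 and between -0.07 and 0.07 on the others. None of the 8 genes was set apart in this way.

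Among the 8 genes, foxo and REPTOR had opposite signs in the 2 dye orientations on every array. Their turned means, in which the Cy5 arrays enter with the opposite sign, were 0.28 for foxo (means 0.45 in Cy3 and -0.11 in Cy5) and 0.32 for REPTOR (0.40 and -0.24), and neither passed in limma (adjusted p = 0.962 for both). Atg13 had opposite signs in the 2 pools, 0.16 in replicate 1 and -0.23 in replicate 3, a difference of 0.40 that was not tested.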

How the results depend on the processing

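None of the 8 genes passed the test in limma under any alternative run. Over all features 6 passed, against 0 with the Cy5 arrays turned, 42 with arrays scaled to equal spread, 10 with named genes alone, 19 with every spot its own feature, 12 with the replicate block (correlation -0.24), and 0 (without the Cy3 array of replicate 3) to 11 with 1 array left out. With named genes alone Lpin passed, at 0.73.

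Turning the Cy5 arrays left 0 of the 8 genes, in place of 2, and 1 pathway gene, in place of 5, at an unadjusted limma p under 0.05. That pathway gene was Vha68-3, of the lysosome list, at 0.43 turned and -0.11 as deposited. The mean of the regulators became 0.18, that of the Atg genes -0.0017 and their difference 0.18. Sesn (-0.063), Atg9 (-0.025), Atg101 (-0.017), Atg8a (-0.085), Atg8b (-0.28), stas (-0.0071), Tsc1 (-0.071), Pi3K68D (-0.11), ImpL2 (-0.17), bmm (-0.0060) and puc (-0.068) moved below 0. Pi3K59F (0.28), Iml1 (0.14), Nprl2 (0.059), Sik2 (0.063), fbp (0.25), Lamp1 (0.31) and Vha16-1 (0.22) moved above it.

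With 1 array left out, 0 to 2 of the 8 genes and 3 to 5 pathway genes stood at that unadjusted mark. Leaving out 1 array also leaves its pool with a single dye, so these fits are unbalanced for dye. The regulators' mean ran from 0.12 to 0.32, the Atg genes' from 0.10 to 0.13 and the difference from 0.0070 to 0.21. With 1 array or pool left out the sign changed for foxo (-0.010 to 0.35), REPTOR (-0.13 to 0.28), Atg9 (-0.023 to 0.071), Atg13 (-0.23 to 0.16), Atg4b (-0.062 to 0.23), stas (-0.037 to 0.12), Sin1 (-0.12 to 0.22), Tsc1 (-0.14 to 0.19), Pi3K68D (-0.081 to 0.14), ImpL2 (-0.016 to 0.32) and fbp (-0.56 to 0.057). It did not for Sesn (0.33 to 0.51), Atg18a (0.34 to 0.44) or Atg101 (0.10 to 0.14).

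A single pool allows no test. Scaling, omitted centring and the replicate block turned the sign of none of the genes for which they were recomputed, the 8 and the pathway genes highest, lowest or at the unadjusted mark in a list. Without 1 array or pool kay ran from 0.16 to 0.56, bmm from 0.24 to 0.57, Lamp1 from -0.59 to -0.072, Vha16-1 from -0.34 to -0.092, Pi3K59F from -0.41 to -0.11, Atg8b from 0.041 to 0.46 and spin from 0.062 to 0.28. Averaging makes a gene's value the same with every spot its own feature. The causes of these shifts were not tested. Signal over background was not used here, so dim spots could not be set aside.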
